A study of Rattus norvegicus with 49 samples.

Results

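Transcripts of 10 rat genes, the stress transcription factor Atf4, some of its best-known target genes and the enzymes that feed one-carbon metabolism, were followed in thyroid glands removed months after a low activity of radioiodine (131I). The genes were Phgdh, Psat1, Shmt2, Mthfd2, Asns, Atf4, Atf5, Ddit3, Chac1 and Trib3, which are 10 of the 15154 gene symbols on the array. They were chosen by name with earlier results of these same arrays known, so that every value given for them is a description and carries no test. Male Sprague Dawley rats received 131I at an age of 5 weeks (young) or 17 weeks (adult), and the controls were untreated. Young rats were given 50 kBq and killed 3, 6 or 9 months later, or 0.5, 5 or 500 kBq and killed 9 months later, and adult rats were given 50 kBq and killed 3, 6 or 9 months later. Untreated controls were killed at ages of 4, 7, 10 and 13 months, which match the ages of the exposed rats. Each of the 49 arrays is labelled as a replicate and was taken to hold the thyroid RNA of 1 rat. There were 4 arrays in each of the 13 groups except 5 kBq, the 7-month controls and the 13-month controls, which had 3. Levels are log2 processed signals minus the 75th percentile of the same array, so that a difference of 1 between groups is a 2-fold change. A level is set only against other levels of the same probe, because the signals of different probes do not share a scale.

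Atf4 is translated when eIF2, a translation initiation factor, is phosphorylated by kinases that sense amino acid shortage, misfolded protein in the endoplasmic reticulum, haem shortage or viral RNA. The protein then binds C/EBP-ATF response elements and switches on genes for amino acid uptake and synthesis, for loading of tRNAs and, when stress lasts, for cell death. Serine synthesis and the mitochondrial folate pathway are among its targets and supply one-carbon units for nucleotides and methylation. A thyroid follicular cell secretes very large amounts of thyroglobulin and so depends on its endoplasmic reticulum. The arrays measured RNA, whereas the amount of Atf4 protein is set largely at translation.

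RefSeq promoters (build GRCr8) were found for all 10 genes, each from 250 bases before to 50 after the start listed with it. They were searched on both strands for 3 short motifs. In Atf5, Psat1 and Asns the listed start lay inside the gene's span, so the bases before the outermost start were not searched. In Shmt2 the listed start lay just inside the span as well, but its window reached past the span's end. The letters TGATGNAA, the core of a C/EBP-ATF response element, were present in 2 of the 10 promoters and in 1048 of 27457 promoters (3.82%). The stricter TGATGCAA, whose matches all lie within those of TGATGNAA, was present in 1 of the 10 and in 0.743% of all promoters. The E-box CACGTG was present in 1 of the 10 and in 6.65% of all. The 3 promoters that held a match are shown as the 250 bases upstream of the start, 5′ to 3′ along the gene's strand, because they carry the letters by which Atf4 is known to bind or, for Atf4 itself, an E-box. Capitals mark the match, which for Chac1 and Trib3 reads TGATGNAA on the opposite strand. The intervals are chr3:126795881-126796130 on the plus strand for Chac1, chr3:161275534-161275783 on the minus strand for Trib3 and chr7:113684431-113684680 on the plus strand for Atf4.
Chac1: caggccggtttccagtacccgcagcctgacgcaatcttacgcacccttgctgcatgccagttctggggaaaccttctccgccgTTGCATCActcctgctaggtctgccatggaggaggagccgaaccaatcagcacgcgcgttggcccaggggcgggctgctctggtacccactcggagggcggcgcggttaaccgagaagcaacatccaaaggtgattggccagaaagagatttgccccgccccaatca
Trib3: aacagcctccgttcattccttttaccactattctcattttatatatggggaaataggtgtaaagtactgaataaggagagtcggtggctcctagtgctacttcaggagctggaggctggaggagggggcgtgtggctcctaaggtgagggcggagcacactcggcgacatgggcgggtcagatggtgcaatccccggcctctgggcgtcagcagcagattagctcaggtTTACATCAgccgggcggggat
Atf4: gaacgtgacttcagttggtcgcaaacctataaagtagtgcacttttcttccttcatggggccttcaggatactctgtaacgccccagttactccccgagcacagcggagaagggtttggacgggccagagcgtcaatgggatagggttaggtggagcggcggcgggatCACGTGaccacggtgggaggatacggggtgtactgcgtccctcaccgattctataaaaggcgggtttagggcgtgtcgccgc
The match begins at base -167 in Chac1, at -21 in Trib3 and at -82 in Atf4, counted from the gene's start. Such a match is a description of the letters and not evidence of binding. In the genes of the surrounding pathways, in lists written with earlier results known, TGATGNAA was present in 16 of 76 promoters. These were 7 of 11 promoters of cytosolic tRNA synthetases (Aars1, Cars1, Iars1, Mars1, Nars1, Tars1 and Yars1), 6 of 17 of other Atf4 targets and partners (Fgf21, Herpud1, Jdp2, Nupr1, Pck2 and Pycr1), 2 of 7 of amino acid transporters (Slc1a4 and Slc7a1) and 1 of 15 of eIF2 kinases and regulators (Ppp1r15b). No match lay in the windows of the other lists.

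The arrays were not all alike. Between 43.1% and 82.5% of spots were well above background on an array, and the 75th percentile of the processed signal was between 61.0 and 4172 (median 2685). Replicate 2 of the young rats 3 months after 50 kBq was the dimmest array on both measures. In replicate 3 of that group and in replicate 2 of the 7-month controls, follicular thyrocyte markers, 9 genes such as Tg (thyroglobulin), had mean levels of -3.69 and -4.43, whereas they were at 0.34 or more on the 47 other arrays. C cell markers were at -5.66 and -5.85 and parathyroid markers at -6.18 and -5.99 on those arrays, so the labelled tissue was poorly represented there. The differences that these 3 arrays moved most are also given for the other 46 arrays. There the young rats 3 months after 50 kBq keep only replicates 1 and 4 and the 7-month controls only replicates 1 and 3. Skeletal muscle markers, 6 genes with a probe out of 7 listed, were well above the 75th percentile on nearly all arrays, with means from 5.46 to 7.83. The exceptions were the 13-month controls (2.54, 2.62 and 3.43), replicate 4 at 500 kBq (3.41), replicate 1 of the 7-month controls (3.84) and replicate 3 of the adult rats 9 months after 50 kBq (-3.05). The 13-month controls also had the highest group mean of thyrocyte markers, 2.56 ± 0.19 (SD, n = 3). Replicates 1 and 2 of the 13-month controls were closer to each other than any other pair of arrays, with an SD of the probe differences of 0.138 against 0.0639 from spot noise alone. Replicates 1 and 2 of the adult rats 6 months after 50 kBq came next, at 0.170 (median of 69 pairs within groups, 0.510). Both pairs differed by more than spot noise, which does not tell 2 rats from 1 RNA sample put on 2 arrays. They were kept as separate rats because the labels number them as replicates, although the labels name no animal.

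Beginning with the enzymes of serine synthesis, Phgdh, which catalyses the first step from a glycolytic intermediate, had its highest group mean in the 13-month controls. Its level there was 5.08, 5.16 and 5.06. In the adult rats of the same age, 9 months after 50 kBq, it was 4.24, 4.08, 5.02 and 4.09, so all 4 exposed arrays lay below all 3 controls, with replicate 3 only just below. The log2 difference was -0.74 (SE 0.38). In RNA of whole glands, here and throughout, fewer cells of a type and less RNA per cell cannot be told apart. In the 4-month controls Phgdh was split between 3.14 and 3.22 on one side and 4.54 and 4.73 on the other, with a mean of 3.91 ± 0.84 (SD, n = 4). The mean was 4.19 ± 0.53 (n = 3) at 7 months and 4.40 ± 0.24 (n = 4) at 10 months. Ordered by mean, only the step from the 13-month controls to the next group exceeded the pooled SD within groups (0.50) among 12 neighbouring steps. The lowest group, the young rats 3 months after 50 kBq (3.36 ± 0.92, n = 4), held the widest spread, from 2.42 to 4.34, with both its extremes on arrays that stand apart.

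Psat1, the aminotransferase of the next step in serine synthesis, was also highest in the 13-month controls, at 5.07, 4.94 and 4.32. The adult rats 9 months after 50 kBq had 3.59, 3.99, 4.44 and 3.76, which overlapped the controls by 1 array on each side, and the log2 difference was -0.83 (SE 0.63). The lowest single values of Psat1 were -0.29, in replicate 3 of the young rats at 3 months, and 0.58, in replicate 2 of the 7-month controls. These are the arrays that lacked thyrocyte markers. The young rats at 3 months differed from the 4-month controls by -0.74 (SE 0.59) in log2 with all arrays and by -0.17 (SE 0.40) without the 3 arrays that stand apart. The comparison of young rats at 6 months with the 7-month controls went from 0.77 to -0.41 and that of adult rats at 3 months from 0.80 to -0.37. No step in the order of its group means exceeded its pooled SD of 0.85.

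Shmt2, the mitochondrial enzyme that turns serine into glycine and a one-carbon unit, varied least of the 10, with a pooled SD of 0.21. It was at 0.45, 0.51 and 0.77 in the 13-month controls. The adult rats 9 months after 50 kBq were at -0.09, -0.18, 0.22 and 0.04, all below the controls, a log2 difference of -0.58 (SE 0.17). The means of the other 12 groups lay between -0.16 and 0.19.

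Mthfd2, the mitochondrial methylenetetrahydrofolate dehydrogenase that oxidises those one-carbon units, had the largest log2 difference of the 10 genes over the 12 comparisons. Its level was -2.07, -2.11 and -1.23 in the 13-month controls and -4.24, -4.00, -2.91 and -3.93 in the adult rats 9 months after 50 kBq. All exposed arrays were below all controls, and the exposed group was 3.91-fold lower (log2 difference -1.97, SE 0.42). The exposed mean, -3.77 ± 0.59 (n = 4), lay within the range of the 11 groups apart from the 13-month controls, from -4.21 to -3.60. It was thus the control group of that age whose level stood apart. Within the scan date that held 2 arrays of each group the difference was -1.93. The gene had 2 further probes, which gave log2 differences of -1.09 (SE 0.36) and -0.64 (SE 0.62), smaller than the main probe although of the same sign. In the young rats at 6 months the second of them gave 1.06, against 0.01 for the main probe, and the latter became -0.62 (SE 0.40) without the 7-month control that lacked thyrocyte markers, which was at -5.47. They correlated with it at r = 0.78 and 0.55 over the 49 arrays and were well above background on 48 and 41 arrays. On the main probe the dimmest array was not well above background.

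Asns, which makes asparagine from aspartate and glutamine and is a standard readout of Atf4 activity, did not follow the serine enzymes in the oldest rats. It was at 1.27, 1.25 and 1.37 in the 13-month controls and at 1.65, 0.86, 1.87 and 0.99 in the adult rats 9 months after 50 kBq, so the exposed arrays lay on both sides of the controls. The log2 difference was 0.04 (SE 0.40). The 7-month controls, at 1.13, 1.23 and 0.99, lay above both groups of that age. The young rats 6 months after 50 kBq had 0.42, 0.96, 0.73 and 0.65, a difference of -0.43 (SE 0.40), and the adult rats 3 months after 50 kBq had 0.85, 0.91, 0.48 and 0.17, a difference of -0.51 (SE 0.40). Without the control that lacked thyrocyte markers these became -0.37 and -0.45 (SE 0.44). The young rats at 6 months shared no scan date with the 7-month controls. For the adult rats at 3 months the difference was -0.17 within the shared scan date.

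**Figure D1:**
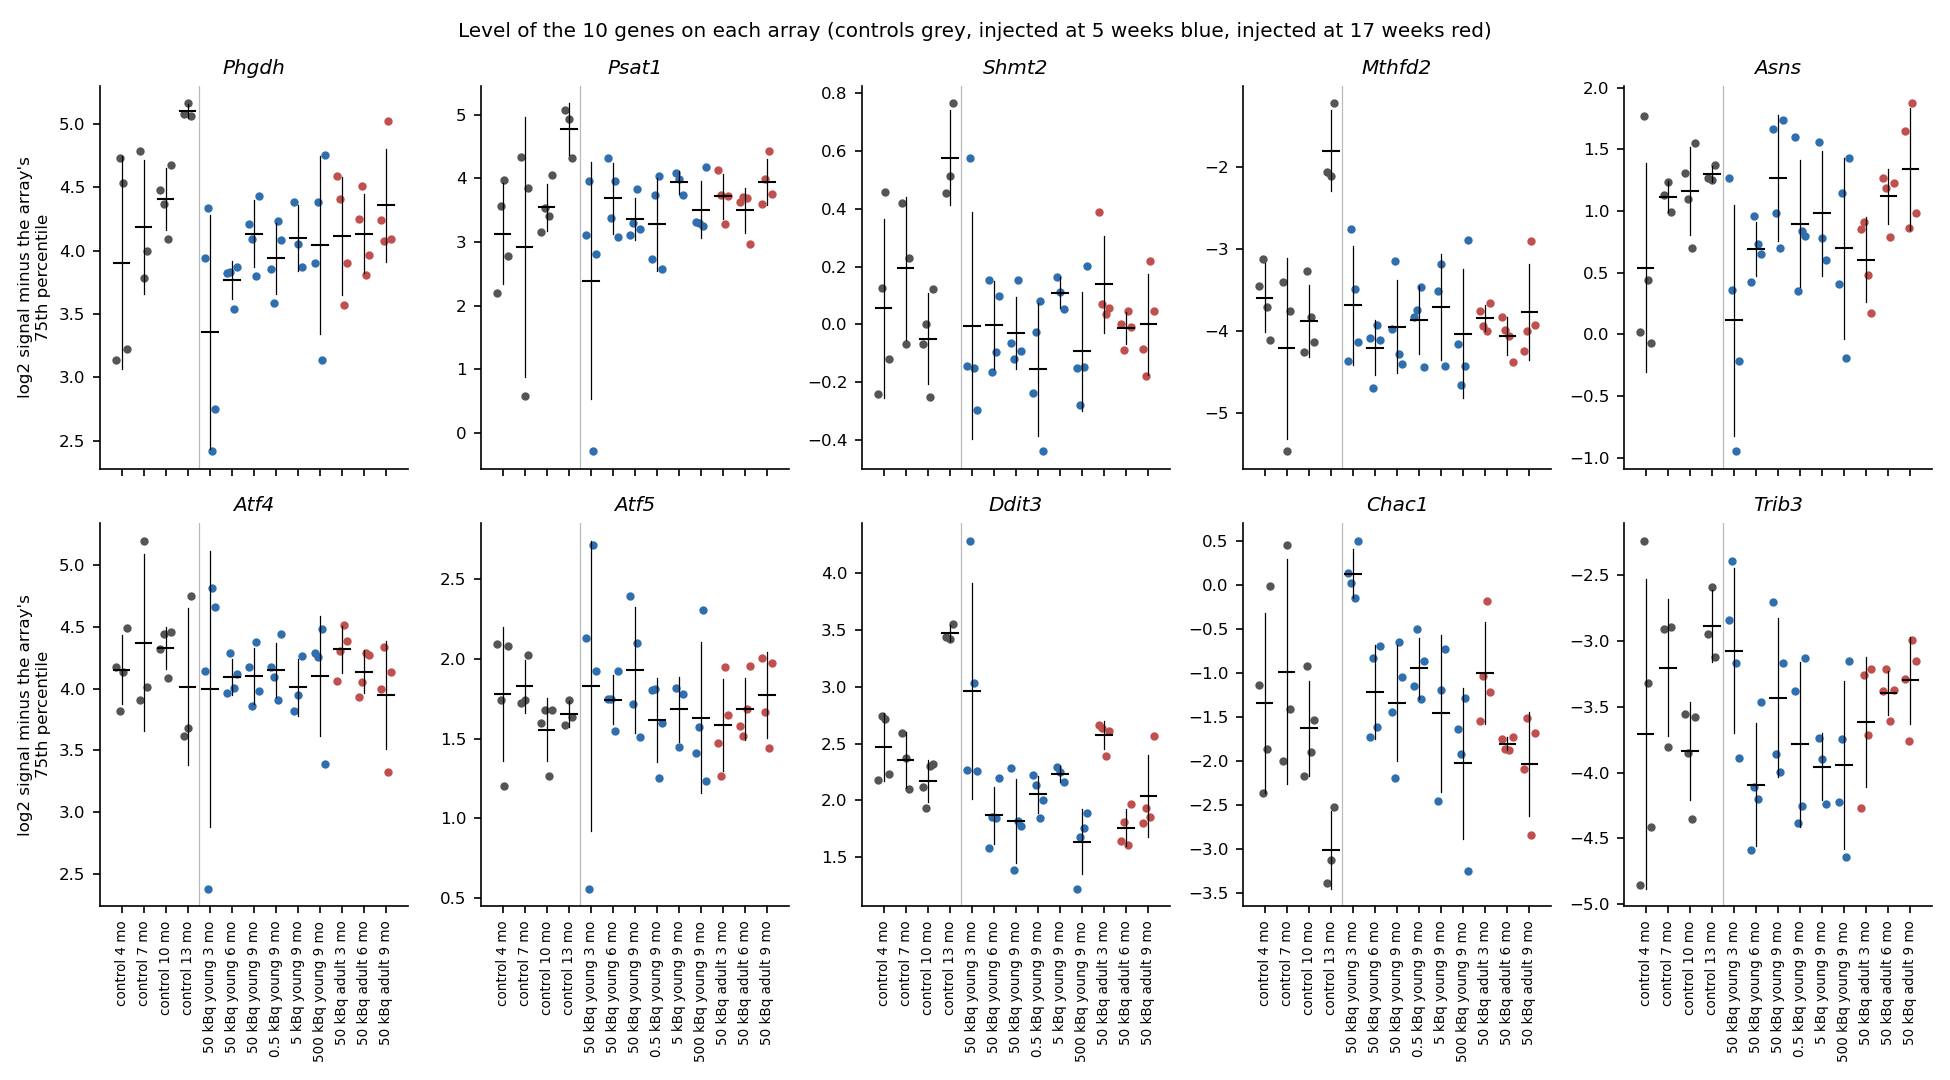
Level of each of the 10 genes on each of the 49 arrays, as log2 signal minus the array's 75th percentile, with a panel for each gene. Points are arrays (controls grey, injected at 5 weeks blue, injected at 17 weeks red), horizontal lines are group means and vertical lines are ± 1 SD. The 13-month controls are the highest group for Phgdh, Psat1, Shmt2, Mthfd2, Ddit3 and Trib3 and the lowest for Chac1, whereas the group means of Atf4 (3.95 to 4.37) and Atf5 (1.56 to 1.93) are close together.

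Among the transcription factors, the RNA of Atf4 itself had group means between 3.95 and 4.37, the highest being that of the 7-month controls, which includes the array at 5.19 that lacked thyrocyte markers. The SD of those means was 0.13, against 0.47 within groups. With all 49 arrays the 9 exposure comparisons gave log2 differences between -0.32 and -0.05, all smaller than the SEs of 0.33 to 0.35. On the 46 arrays that do not stand apart the sign turned in the young rats at 3 months (0.25), the young rats at 6 months (0.13) and the adult rats at 3 months (0.36, SE 0.27 for each). In the adult rats 9 months after 50 kBq it was 4.00, 4.33, 3.33 and 4.13, and in the 13-month controls 3.62, 3.68 and 4.75. Atf5, a related factor that is also controlled at translation, had means from 1.56 to 1.93 and log2 differences of at most 0.37 in either direction (SE 0.27 to 0.29).

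Ddit3 encodes Chop, the factor that Atf4 induces under lasting endoplasmic reticulum stress and that promotes cell death. It was at 3.44, 3.42 and 3.56 in the 13-month controls, a narrow range. The adult rats 9 months after 50 kBq had 1.80, 1.93, 1.85 and 2.57. The groups were well separated, and the exposed group was 2.71-fold lower (log2 difference -1.44, SE 0.28; -1.68 within the shared scan date). The 4-month controls, at 2.18, 2.75, 2.71 and 2.24, also lay below the 13-month controls. At 500 kBq, 9 months after injection of young rats, Ddit3 was at 1.22, 1.68, 1.76 and 1.89, below all 4 of the 10-month controls at 2.12, 1.93, 2.31 and 2.32 by a narrow margin. That log2 difference was -0.53 (SE 0.26). Within the only scan date that held both groups, with 1 array of each, it was -0.63. Over the lower activities there was no steady order, with means of 2.05 ± 0.17 (n = 4) at 0.5 kBq, 2.23 ± 0.07 (n = 3) at 5 kBq and 1.81 ± 0.37 (n = 4) at 50 kBq. The highest single value, 4.29, came from the dimmest array. Over all 49 arrays the level of Ddit3 correlated with log2 of the array's 75th percentile at r = -0.66, and at -0.42 over the 46 arrays. The 13-month controls were rather dim arrays (75th percentiles 1333 to 1441). The part of brightness in these differences was not tested.

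Chac1 encodes an enzyme that breaks down glutathione and is a late, strongly induced Atf4 target. Its pattern was opposite to that of the serine enzymes. The 13-month controls were the lowest group, at -3.39, -3.13 and -2.53, and the adult rats 9 months after 50 kBq were at -2.09, -1.51, -2.85 and -1.68, with 1 exposed array among the controls (log2 difference 0.98, SE 0.51). The highest group was the young rats 3 months after 50 kBq, at 0.14, 0.03, -0.14 and 0.51. The 4-month controls had -1.14, -2.36, -1.86 and -0.00, of which the last lay among the exposed arrays. That difference was 1.47 in log2 (SE 0.47), a 2.78-fold higher mean, and 1.67 (SE 0.53) without the arrays that stand apart. The highest group and the lowest group were each set off from their neighbours in the order by more than the pooled SD.

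Trib3, a pseudokinase induced by Atf4 and Chop that restrains both, had no group set off from the next. It ranged from a mean of -4.09 ± 0.47 (n = 4) in the young rats 6 months after 50 kBq to -2.88 ± 0.27 (n = 3) in the 13-month controls. The log2 difference of those young rats from the 7-month controls was -0.89 (SE 0.43), and -1.19 (SE 0.48) without the control that lacked thyrocyte markers. These groups shared no scan date. The 4-month controls alone spanned -4.86 to -2.24. The probe was not well above background on the dimmest array.

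The 9 exposure comparisons and 3 comparisons of older with 4-month controls were fitted with limma over the 23992 probes that passed a filter on dim signal, being well above background on 3 arrays or more. A probe was called at an adjusted p under 0.01 and a fold change over 1.5. In the adult rats 9 months after 50 kBq, 2 of the 10 genes were called, Mthfd2 and Ddit3, both lower, beside 0.671% of all probes called and 0.45% called lower. For 4 genes (Phgdh, Shmt2, Mthfd2 and Ddit3) all exposed arrays were below all controls, as they were for 16.2% of all probes. Because the genes were selected with this comparison known, nothing is read from these counts. The median log2 difference of the 10 was -0.50, beside -0.12 over all probes. The call of Mthfd2 held in 6 of 19 alternative settings, and among the 7 fits that left out 1 array of these groups only in the fit without replicate 3 of the exposed rats (-2.26). The call of Ddit3 held in 10 of 19, and in the fits without exposed replicate 3 (-1.37), exposed replicate 4 (-1.61) or control replicate 3 (-1.40). Every one of these settings gave a negative difference, from -2.26 to -1.68 for Mthfd2 and from -1.61 to -1.33 for Ddit3. Neither gene was called with scan date as a block, with the replicate number as a block, without the filter on dim signal, with this comparison fitted alone or with the close pairs averaged. The count over all probes went from 161 to 3 with scan date as a block and to 14 with the replicate block, and in these fits the differences were -1.71 and -1.92 for Mthfd2 and -1.44 and -1.45 for Ddit3. Without the 3 arrays that stand apart both were called, beside 9.58% of all probes.

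In the 8 other exposure comparisons none of the 10 genes was called. Of all probes 0.0125% were called with 5 kBq and likewise 0.0125% with 50 kBq in the young rats at 9 months. The share was 0% with the lowest and the highest activity, in the young rats at 3 and 6 months and in the adult rats at 3 and 6 months. At an unadjusted p under 0.05 the comparisons with 0 calls by limma held 232 probes (0.5 kBq), 403 (500 kBq), 9037 (young, 3 months), 1639 (young, 6 months), 1185 (adult, 3 months) and 196 (adult, 6 months). Groups did not overlap for Ddit3 at 500 kBq (lower, as for 0.588% of all probes) and for Asns in the young rats at 6 months (lower, as for 6.16%) and the adult rats at 3 months (lower, as for 7.28%). For young rats at 9 months the median log2 difference of the 10 genes was -0.11, 0.10, -0.03 and -0.19 in order of activity, beside -0.00, -0.01, 0.05 and 0.05 over all probes. It was -0.08 and -0.26 in young rats 3 and 6 months after 50 kBq and -0.05 and -0.11 in adult rats, beside 0.26, -0.10, -0.11 and 0.06. At 500 kBq 9 of the 10 genes were lower than in the controls, by at most 0.53 in log2, beside 40.7% of all probes that were lower. Of the 500 kBq arrays 3 were on the second scan date, which held no 10-month control. Within the third scan date, with 1 array of each group, the median of the 10 was 0.07. All 4 arrays of the young rats at 6 months were on the first scan date, which held no 7-month control. Scan date and exposure cannot be told apart there, and at 500 kBq only in part. Several of these comparisons share their controls, namely 5 that use the 10-month controls and 2 that use the 7-month controls, so their values are not independent.

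**Figure D2:**
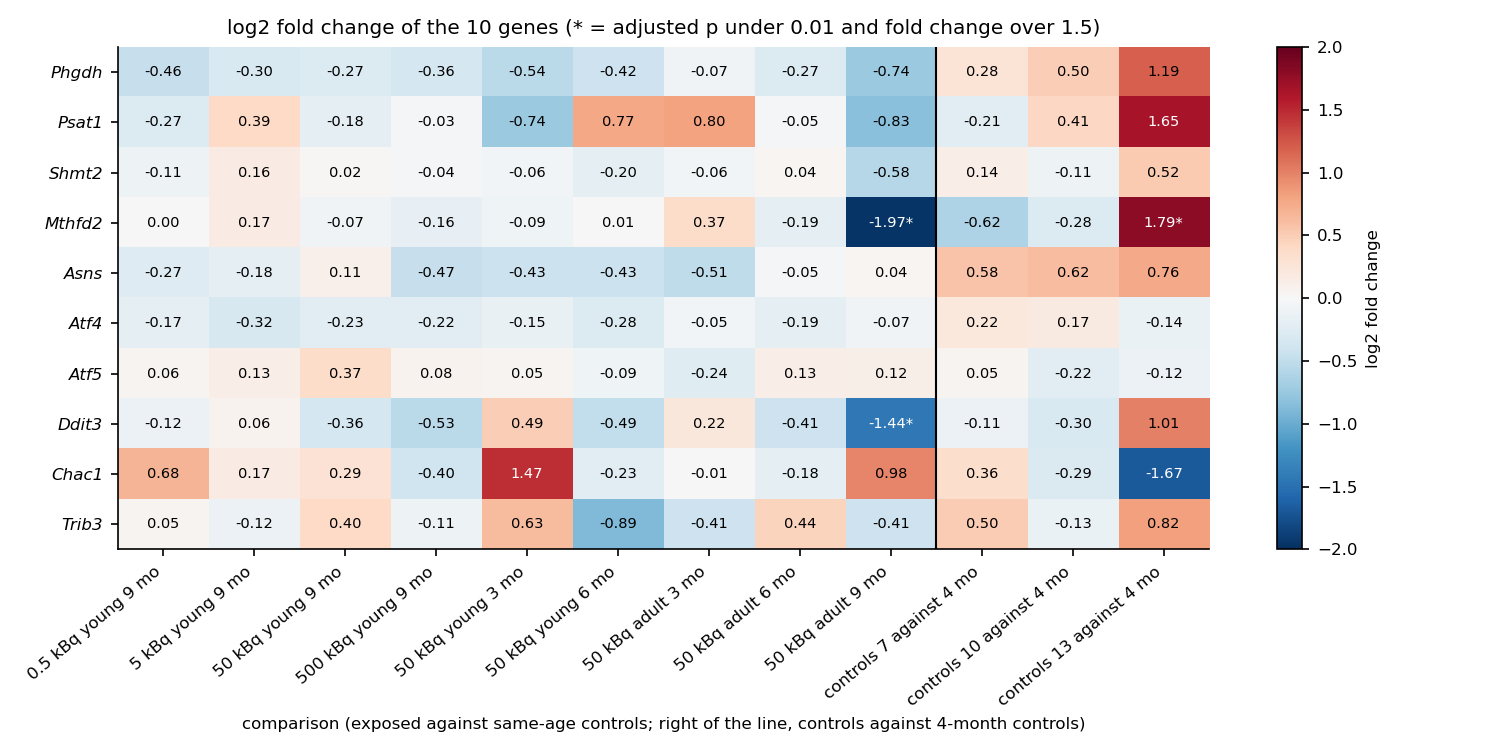
log2 fold change of the 10 genes in the 9 exposure comparisons (left of the line, against controls of the same age) and in 3 comparisons of older with 4-month controls (right of the line), with the colour scale in log2 units. Stars mark an adjusted p under 0.01 with a fold change over 1.5. They stand at Mthfd2 and Ddit3 in the adult rats 9 months after 50 kBq and at Mthfd2 between 13-month and 4-month controls, and these comparisons share the 13-month controls.

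The untreated controls were also compared by age. Between 13-month and 4-month controls Mthfd2 was 3.47-fold higher (log2 difference 1.79, SE 0.42) and was the only one of the 10 genes called, beside 5.87% of all probes called and 3.46% called higher. The difference was 1.64 and 1.80 within the 2 scan dates that held both groups. On the 2 further probes of Mthfd2 it was smaller, at 0.92 (SE 0.36) and 1.00 (SE 0.62). Phgdh (1.19, SE 0.38), Psat1 (1.65, SE 0.63) and Ddit3 (1.01, SE 0.28) were higher in all 13-month than in all 4-month controls, as was Mthfd2, beside 22.3% of all probes. Chac1 was lower in all of them (-1.67, SE 0.51), beside 13.3% of all probes. The other differences were 0.82 for Trib3 (SE 0.43), 0.76 for Asns (SE 0.40), 0.52 for Shmt2 (SE 0.17), -0.14 for Atf4 and -0.12 for Atf5. The median over the 10 was 0.79, beside 0.20 over all probes. Mthfd2 was called in 11 of 19 alternative settings, among them the fits without 4-month control replicate 2 (1.95) or replicate 3 (1.76), and in no fit that left out a 13-month control. It was not called with the close pairs averaged, where 5 of all probes were called in place of 1409. Without the 3 arrays that stand apart 5 of the 10 genes were called, Mthfd2, Phgdh, Psat1 and Ddit3 higher and Chac1 lower, beside 23.3% of all probes. Neither of the younger ages gave a call among the 10. At 7 against 4 months 0.00417% of all probes were called and the median of the 10 was 0.18, and at 10 against 4 months 0.0125% and -0.12. The labels name no cage, litter or day of killing, so age and anything else that the 3 rats of 13 months share cannot be told apart.

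The levels of the 10 genes moved with tissue markers from array to array. The markers were set against the deviations of each gene from its group mean on the 46 arrays that do not stand apart, which share scan dates and slides, and the 100 correlations of 10 marker lists with the 10 genes are descriptions. Psat1 followed the thyrocyte markers most closely, with r = 0.92 (Spearman's rho 0.89), and 0.94, 0.97 and 0.68 within the 3 scan dates. With the 2 arrays farthest from the median left out, r was 0.90. Shmt2 followed them too (r = 0.80, rho 0.66), whereas Phgdh did so less (0.37) and Mthfd2 at 0.34. Atf4 followed the skeletal muscle markers (r = 0.67, rho 0.84, and 0.59 without the 2 extreme arrays), as did Chac1 (r = 0.53, rho 0.75). Mthfd2 (r = -0.57) and Phgdh (r = -0.50) ran against them. Trib3 (r = 0.70) and Asns (r = 0.62) followed adipocyte markers, although not within the third scan date (r = -0.09 and -0.88), and Atf5 followed cartilage markers (r = 0.78).

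The arrays with low muscle markers show much of the same pattern one by one. They are part of the correlations above and so are no separate support for them. In the adult rats 9 months after 50 kBq, replicate 3 had muscle markers at -3.05 and, of its group, the highest Mthfd2 (-2.91), Phgdh (5.02), Psat1 (4.44) and Shmt2 (0.22) and the lowest Chac1 (-2.85) and Atf4 (3.33). At 500 kBq, replicate 4, with muscle markers at 3.41, likewise had the highest Mthfd2 (-2.90), Phgdh (4.75) and Psat1 (4.17) of its group and the lowest Chac1 (-3.25) and Atf4 (3.39). Replicate 1 of the 7-month controls, with muscle markers at 3.84, had the highest Phgdh (4.78) and Psat1 (4.34) and the lowest Chac1 and Atf4 (3.90) of that group. The 13-month controls, all low in muscle markers, were the highest group for those enzymes and the lowest for Chac1. They were not the lowest for Atf4, at 3.62, 3.68 and 4.75, a mean of 4.02 that ranked 10 in the order of group means. Ddit3 did not share the pattern of the enzymes. It was 1.85 and 1.89 on those exposed arrays, close to the other arrays of their groups, and 3.42 or more on all 13-month controls. The part of muscle or thyrocyte content in the differences between groups was not tested.

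**Figure D3:**
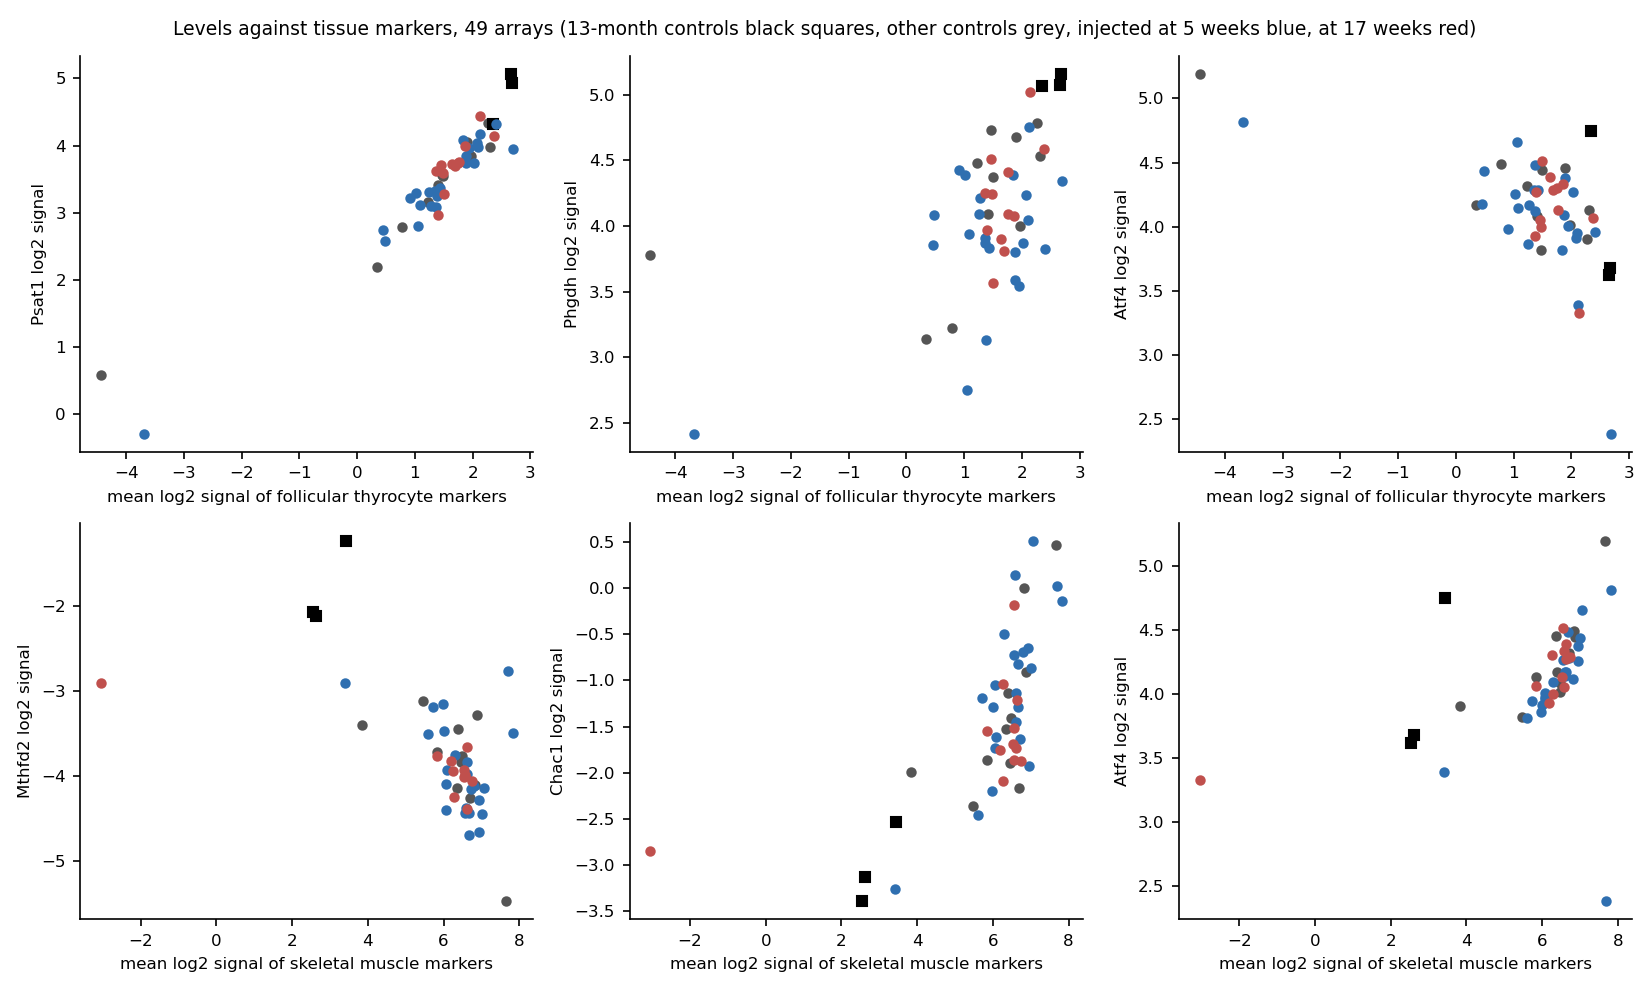
Level of a gene on each of the 49 arrays against the mean level of follicular thyrocyte markers (upper panels) or skeletal muscle markers (lower panels), all as log2 signal minus the array's 75th percentile. Squares are the 13-month controls, grey points other controls, blue points rats injected at 5 weeks and red points rats injected at 17 weeks. Psat1 is higher where the thyrocyte markers are higher over the whole range, including the arrays at -3.69 and -4.43, and the 13-month controls lie at the low end of the muscle markers with high Mthfd2 and low Chac1.

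The 10 genes did not vary as 1 programme. Among the 45 pairs, deviations from group means on the 46 arrays gave r = 0.80 for Phgdh with Asns, 0.75 for Asns with Trib3 and 0.68 for Phgdh with Trib3. Psat1 and Shmt2 formed a further pair (0.71), and Mthfd2 was closest to Shmt2 (0.45). Atf4 RNA went with Chac1 (0.76, rho 0.77) and Atf5 (0.45) and against Phgdh (-0.59), Psat1 (-0.53) and Asns (-0.49). Chac1 ran against Phgdh (-0.66), Asns (-0.56) and Mthfd2 (-0.52), although all are known Atf4 targets. Some of these values differed within the third scan date, which had 10 of the 46 arrays. Deviations there were taken from the group means within the scan date. Only the young rats at 9 months and the adult rats at 6 and 9 months, all after 50 kBq, had 2 arrays in it. The other groups had 1, with a deviation of 0, so r rests on few differences. No conclusion is drawn from the values of that scan date. There r was 0.10 for Psat1 with Shmt2, -0.75 for Mthfd2 with Shmt2 and 0.29 for Atf4 with Psat1, whereas it was 0.93 for Atf4 with Chac1 and -0.74 for Atf4 with Phgdh. Mthfd2 and Ddit3, both of which were called in the oldest exposed rats, gave r = -0.01. Within the scan dates their r was 0.06 in the first, 0.56 in the second and -0.54 in the third. Because the genes run against each other, the mean of the 10 is a poor summary. The deviations of 12245 other genes from their group means were compared with the mean standardised deviation of the 10 over the 49 arrays all the same. The closest were Btd (r = 0.83), Sgpl1 (0.78), C18h18orf32 (0.75), Pip4k2a (0.75) and Nr4a2 (0.75). The genes themselves correlated with it from 0.75 (Trib3) and 0.75 (Phgdh) to -0.34 (Chac1) and -0.47 (Atf4). Over the 46 arrays these values were 0.67, 0.64, -0.25 and -0.15, with Shmt2 (0.69) now the highest, and the 5 closest other genes were at 0.79, 0.70, 0.68, 0.70 and 0.71.

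**Figure D4:**
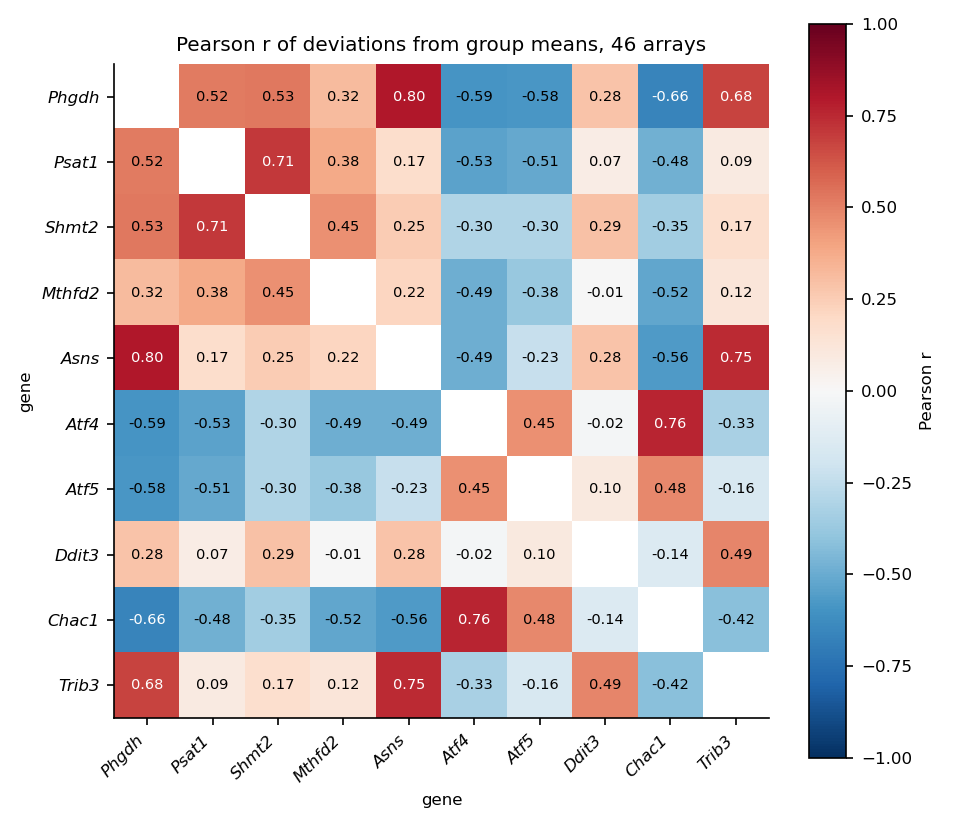
Pearson correlation between the 10 genes of their deviations from group means on the 46 arrays that do not stand apart, with r from -1 to 1 on the colour scale. Phgdh, Asns and Trib3 form a block (0.68 to 0.80), Psat1 and Shmt2 a pair (0.71) and Atf4 and Chac1 another (0.76). Phgdh, at -0.59 and -0.66, runs against Atf4 and Chac1, and Shmt2 less so, at -0.30 and -0.35. Within the third scan date Shmt2 gave 0.52 and 0.70, values that rest on few differences between arrays.

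The surrounding pathways were covered by 92 further genes in 7 lists, 83 of them with a probe and 81 bright enough to be tested. In the adult rats 9 months after 50 kBq, 2 of the 81 (2.47%) were called, beside 0.671% of all probes. The lists were written with earlier results of these data known, so nothing is read from this share. Herpud1, which helps to clear misfolded protein from the endoplasmic reticulum, was lower by 1.49 in log2 (SE 0.33, limma adjusted p = 0.00916). It was at 2.33, 2.75, 2.46 and 2.89 in the exposed rats and at 3.72, 3.62 and 4.95 in the 13-month controls, without overlap. Gcsh, a protein of the mitochondrial glycine cleavage system, was higher by 1.27 (SE 0.26, limma adjusted p = 0.0065). It was at 0.14, -0.40, -0.72 and -0.38 in the exposed rats and at -1.60, -1.50 and -1.72 in the 13-month controls, without overlap. The 4-month controls, at -0.52, -0.79, -1.23 and -0.30, also lay above the 13-month controls. Neither was called when the close pair of controls was counted as 1 array.

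Between 13-month and 4-month controls 7 of the 81 (8.64%) were called, beside 5.87% of all probes, and nothing is read from shares that close. These calls and their adjusted p-values count the close pair of 13-month controls as separate rats. With the close pairs averaged, 5 of all probes were called in this comparison in place of 1409. Higher at 13 months were Atf6, a stress sensor of the endoplasmic reticulum (log2 difference 1.25, SE 0.31, limma adjusted p = 0.00681), and Mtr, methionine synthase, which uses a folate-bound methyl group (0.77, SE 0.19, limma adjusted p = 0.00617). Lower were Vldlr, a lipoprotein receptor (-2.49, SE 0.54, limma adjusted p = 0.00285), Gpt2, the mitochondrial alanine aminotransferase (-2.52, SE 0.67, limma adjusted p = 0.00985), and Slc38a2, an amino acid transporter (-1.82, SE 0.45, limma adjusted p = 0.00647). Cth, which makes cysteine from cystathionine (-1.35, SE 0.33, limma adjusted p = 0.00649), and Eif2b1, a subunit of the exchange factor for eIF2 (-0.74, SE 0.19, limma adjusted p = 0.00707), were lower as well. The groups overlapped for Cth. Its level in 13-month replicates 1 and 2, -7.35 and -7.22, lay below the lowest signal well above background on those arrays (-6.85 and -6.61). The same held for Gpt2 in 13-month replicate 3 (-6.88 against -6.70), so the size of both differences is uncertain. Vldlr, Gpt2, Slc38a2 and Cth, which the lists hold as Atf4 targets or transporters, were lower in the same 13-month controls in which Mthfd2 was higher. In replicate 3 of the exposed adults, the array with the lowest muscle markers, Gpt2 was at -6.03 and Vldlr at -4.65, against -3.56 to -3.38 and -2.93 to -2.61 on the other 3 arrays of its group. Their relation to muscle content was not tested further. In the 10 other comparisons limma called 0 of the 81 genes, and the number at an unadjusted p under 0.05 lay between 1 and 29.

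By list, the 3 tested serine and glycine enzymes gave 1 call (Gcsh) in the adult rats 9 months after 50 kBq, and the 16 folate enzymes and carriers 0 (5 at an unadjusted p under 0.05 by limma). Psph, which completes serine synthesis after Psat1, differed by 0.15 (SE 0.30). Aldh1l1, which removes one-carbon units from folate, differed by 1.54 (SE 0.56) but missed the threshold (limma adjusted p = 0.0906). None of 11 cytosolic tRNA synthetases was called by limma there, with a median log2 difference of -0.02 (1 at an unadjusted p under 0.05), or between 13-month and 4-month controls, with a median of -0.05 (0 at an unadjusted p under 0.05). Yet 7 of their promoters hold the TGATGNAA letters. Their single differences in the exposed adults lay between -0.51 (Wars1) and 0.16 (Iars1). The 7 amino acid transporters had a median of -0.43 and the 15 eIF2 kinases and regulators one of -0.14, each with 0 calls by limma in the exposed adults (1 and 6 at an unadjusted p under 0.05).

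Among 10 other genes of the unfolded protein response, none was called by limma in the exposed adults (6 at an unadjusted p under 0.05), yet all 10 were lower than in the 13-month controls, with a median of -1.04, beside 58.4% of all probes that were lower. Of the 10, 7 did not overlap (16.2% of all probes did not, in that direction). Hyou1, a chaperone, differed by -1.56 (SE 0.46, limma adjusted p = 0.0391), Atf6 by -1.14 (SE 0.31, limma adjusted p = 0.0306) and Pdia4, a disulfide isomerase, by -2.04 (SE 0.95, limma adjusted p = 0.187). Between 13-month and 4-month controls 9 of the 10 were higher, with a median of 1.09, while 39.6% of all probes were lower. There was 1 call (Atf6), and 5 genes did not overlap (22.3% of all probes). The 13-month controls are common to both comparisons. The list also moved elsewhere, with no call. Its median was 0.62 at 5 kBq, where 9 of the 10 were higher and 6 did not overlap (8.96% of all probes). It was -0.89 in young rats and 0.58 in adult rats 3 months after 50 kBq, comparisons that include arrays lacking thyrocyte markers. In the others it lay between -0.34 and 0.03. The list was written with earlier results known. The list contains genes that secretory thyrocytes express strongly, and thyrocyte markers were highest in the 13-month controls. The part of thyrocyte content in these values was not tested.

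**Figure D5:**
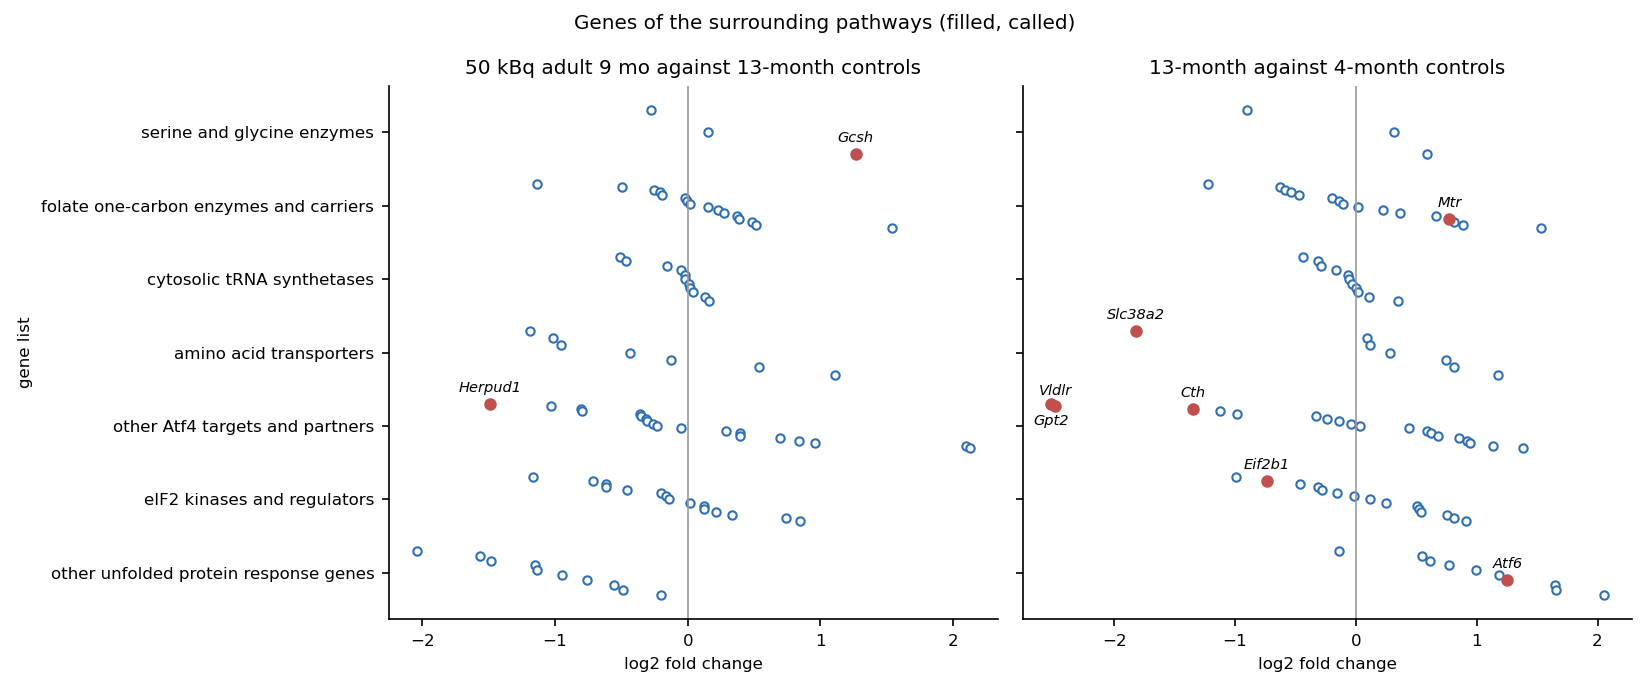
log2 fold change of 81 genes of the surrounding pathways in 7 lists, in the adult rats 9 months after 50 kBq (left) and between 13-month and 4-month controls (right). Each circle is a gene, and filled circles with a name passed an adjusted p under 0.01 with a fold change over 1.5. All 10 other unfolded protein response genes lie below 0 on the left, as do 58.4% of all probes, and 9 of 10 above 0 on the right, where 39.6% of all probes lie below 0, while the tRNA synthetases stay near 0 in both.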

How the data were processed

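Rat thyroid RNA, labelled with Cy3, was hybridised to 49 Agilent rat arrays read in 1 colour. The authors deposited the scanner's processed signal intensity of every spot, with background subtracted, beside 0 or 1 marks for spots well above background. Partek is named in the submitters' processing notes, without a version. The values were taken as deposited, control and outlier spots left out, spots of a probe averaged, and the log2 of the intensity reduced by the array's 75th percentile. Where a gene had several probes, that with the highest mean signal was used (RefSeq accessions gave the symbols). The 10 genes and all lists were chosen with earlier results of these data known. The pathway genes named are those that passed the test, while Mtr, Eif2b1, Psph, Aldh1l1, Wars1, Iars1, Hyou1 and Pdia4, which fall outside the rule of the 5 largest called genes of a comparison, were named with their values already known. The 5 genes most like the mean of the 10 were taken by Pearson's r.

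A model of group means was fitted with limma (3.58.1, under R 4.3.3; 13 groups, all 49 arrays, 23992 probes well above background on at least 3 arrays), with Benjamini-Hochberg adjustment over all probes for each comparison. The steps were tested on simulated data. The number of arrays limits the precision, and p-values measure the spread between these arrays. A deposited table that holds the authors' own fold changes was not used. Groups came from the sample labels. Same-numbered rats are different animals, and their deviations correlated from -0.54 to 0.53 over the 12 comparisons, so no replicate block was used. Array files name no genome build, and coordinates are those of RefSeq promoters (GRCr8). Alternatives were quantile scaling, normexp background correction (offset 50), other filters, scan date, slide or replicate number as a block, an adjusted p of 0.05, separate fits, array weights, the mean of all probes of a gene and leaving out each array. Chosen after seeing the data were the fits without the 3 arrays that stand apart, with the 2 close pairs averaged, and with gene-by-gene array weights.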

Additional observations from a re-analysis of the deposited data

Results flagged for a closer look

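Among the 100 sets of a gene in a group with 4 arrays, 5 held an array set apart from the other 3 by more than Dixon's criterion allows, and chance alone gives about 1 in 20. Phgdh was low in replicate 3 of the young rats 6 months after 50 kBq (3.54, others 3.83 to 3.87). Psat1 was high in replicate 4 at 500 kBq (4.17, others 3.26 to 3.32), the array of that group with low muscle markers. Psat1 was low in replicate 4 of the adult rats 6 months after 50 kBq (2.97, others 3.63 to 3.71). Shmt2 was high in replicate 1 of the adult rats 3 months after 50 kBq (0.389, others 0.0366 to 0.0717). Asns was low in replicate 3 of the adult rats 6 months after 50 kBq (0.789, others 1.19 to 1.27), a group whose replicates 1 and 2 are the close pair.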

How the results depend on the processing

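No alternative turned the direction of a called value. Of 186 recomputed medians of the 10 genes 179 moved by less than the spread between arrays, and of 1860 recomputed differences of single genes 1851 did. Many were close to 0, and the sign was kept in 174 of the 186 medians and 1708 of the 1860 differences. With scan date or the replicate number as a block neither Mthfd2 nor Ddit3 was called in any exposure comparison. The median of the adult rats 3 months after 50 kBq lay between -0.27 (without control 7 mo replicate 2; -0.05 with all arrays) and -0.013 with 1 array left out, and was -0.27 without the 3 arrays that stand apart. That of the young rats at 6 months lay between -0.45 (without control 7 mo replicate 3) and -0.21, that of 5 kBq between -0.022 (without its replicate 2) and 0.10, and that of 13-month against 4-month controls lay between 0.51 (without 4-month replicate 1) and 1.13 (without 4-month replicate 2). The number of probes called over the 9 exposure comparisons depended strongly on the setting. It was 167, and 39 with normexp, 20 without a filter, 11 with scan date as a block, 20 with the replicate block, 5437 at an adjusted p under 0.05, 4 with each comparison fitted alone, 8138 with array weights (the default method did not converge), 2311 without the 3 arrays and 6 with close pairs averaged. The pathway genes called, 2 at first, became 1 with quantile scaling, 0 with normexp, without a filter, with scan date, with the replicate block, fitted alone or with close pairs averaged, 19 at an adjusted p under 0.05, 25 with array weights and 10 without the 3 arrays. With 1 array left out the counts lay between 6 and 4241 probes and between 0 and 12 pathway genes. Probes numbered 6 without replicate 1 or 2 of the oldest exposed rats or of the 13-month controls, 16 without exposed replicate 4, 955 without exposed replicate 3 and 330 without 13-month control replicate 3. They numbered 4241, 1190, 309 and 3911 without replicates 1 to 4 of the young rats at 3 months, 293 without control 7 mo replicate 2 and 275 without 500 kBq replicate 4. Most fits without a single array of another group called 1 pathway gene in place of 2. By comparison, the count over the alternatives other than leaving out a single array ranged from 0 to 7701 for the oldest exposed rats, from 0 to 9260 between 13-month and 4-month controls, from 0 to 4187 for the young rats at 3 months, from 0 to 153 for the young rats at 6 months, from 0 to 220 for the adult rats at 3 months, from 0 to 64 between 7-month and 4-month controls and from 0 to 30 in the others. The replicate block, with numbers that pair no animals, gave 14 probes for the oldest exposed rats in place of 161, and 864 in place of 1409 between 13-month and 4-month controls. In 1 comparison, young rats at 6 months with the 7-month controls, every same-numbered pair correlated above 0.1 (0.16 to 0.34, each best with its own number), and the blocked count stayed at 0. Apart from construction (fewer arrays, more probes), the cause of these shifts was not tested. The brightness of the dimmest array, with 43.1% of spots well above background, limits what can be said of the dim probes of Mthfd2 and Trib3 there.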
